A study of Mus musculus with 18 samples.

Results

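The contactins measured here were Cntn1, Cntn2, Cntn3, Cntn4, Cntn5 and Cntn6, 6 of the 19057 genes with a probe on the mouse whole-genome bead array, represented by 14 of its 45281 probes. They were taken as all probes that the platform annotation gives to these 6 genes, and each gene was read from its probe with the highest mean over all 18 arrays. The arrays held RNA from 2 medulloblastomas (MBs), 1 NdpKO;Ptch+/- and 1 Ptch+/-, and from granule neuron progenitors (GNPs) of the postnatal day 6 cerebellum, with 4 arrays each of NdpKO;Ptch+/-, Ptch+/-, NdpKO and wild-type GNPs. Ptch+/- animals carry 1 inactive allele of Ptch, the Hedgehog receptor that restrains granule progenitor growth, and develop MB. NdpKO animals carry a lacZ cassette in the X-linked gene of Norrin, a ligand of Frizzled4, in every cell of the animal, and the compound mutants were males that carry both changes. Wild-type and Ptch+/- arrays were labelled C57Bl/6 and NdpKO arrays as of mixed background, and of the 4 NdpKO;Ptch+/- GNP arrays 1 was labelled mixed and the other 3, like the tumour of that genotype, carry no strain label. Strain and Ndp loss therefore cannot be told apart in NdpKO against wild-type GNPs, nor, with these labels, in the compound-mutant comparisons or the interaction. The design text states that the controls of compound mutants came from one breeding cohort with them, which the strain labels of these arrays do not show. GNPs were enriched on a Percoll gradient with pre-plating, while tumours were dissected whole from symptomatic mice although their arrays carry the age label of the GNPs. No label of the arrays names an animal or a litter. The paper counts its arrayed GNP samples of each genotype as animals, and that count equals the number of arrays per group here. By that account the GNP arrays of a genotype are separate animals and not repeats of the same RNA. Which of them shared a litter is not given. The p-values measure the spread between these arrays, which holds technical spread as well as that between animals.

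Contactins are neural cell adhesion molecules of the immunoglobulin superfamily that carry immunoglobulin-like and fibronectin type III domains and are held at the cell surface by a lipid anchor, so that they signal through partners in the same or the facing membrane. Cntn1 pairs with Cntnap1 at the paranodes of myelinated axons and binds the receptor phosphatase Ptprz1. Cntn2, also called TAG-1, is known in the developing cerebellum as a marker of granule neurons that have left the cycle and are extending their first axons, and pairs with Cntnap2 along axons. Cntn3 to Cntn6 bind the phosphatase Ptprg, and Cntn6, also called NB-3, is known in mice at granule cell synapses.

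Values are deposited log2 signals, in which the median of every array was 4.13 and 23.0% to 23.9% of probes reached level 5, taken here as the limit near background. Levels of different probes are not compared, since a probe's brightness depends on its sequence. Of the 14 contactin probes, 11 stayed below level 5 on all 18 arrays, between 4.09 and 4.49. Cntn1 and Cntn2 each had 1 probe above the limit on every array, and the only Cntn6 probe reached it on 10 arrays, all of GNPs. Cntn3 lay between 4.10 and 4.15, the brightest Cntn4 probe between 4.10 and 4.13 and the brightest Cntn5 probe between 4.11 and 4.14, so that for these genes of axon growth and wiring the arrays gave a bound and no level. A probe at background does not show that its transcript was missing: the probes of Atoh1, the defining transcription factor of GNPs, and of the Hedgehog target Gli1 lay at 4.11 and 4.12 on average over the same arrays. Other GNP markers were well above background, with 7 of the 11 listed genes that had a probe at or above 5, among them Zic1 at 12.87 and Barhl1 at 10.17.

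**Figure D1:**
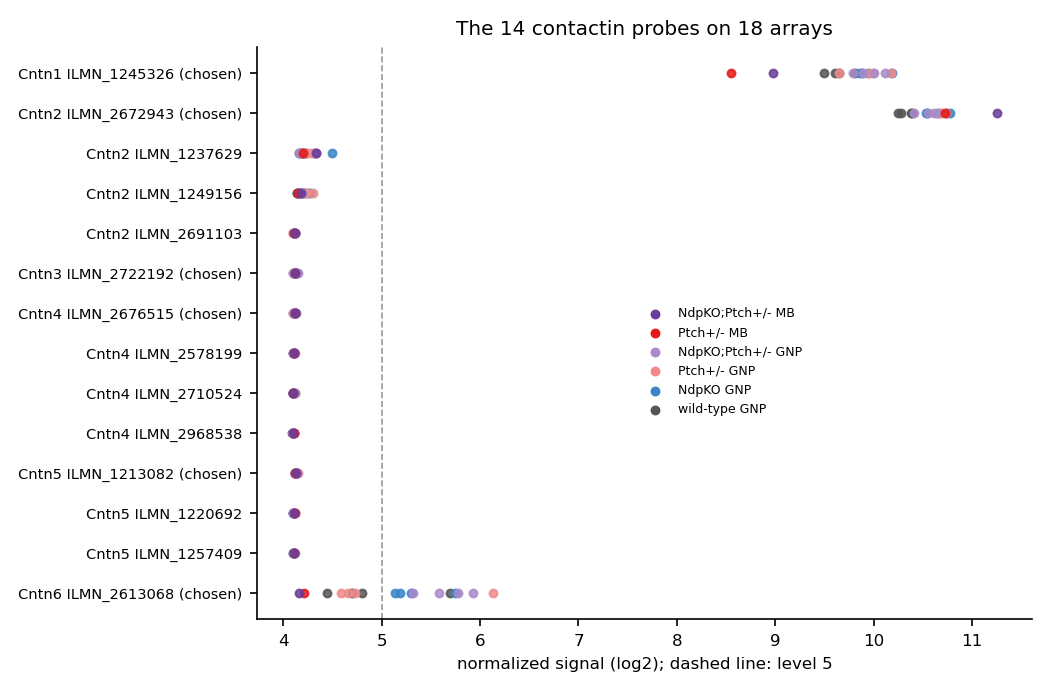
Normalized signal (x axis, log2) of each of the 14 contactin probes (rows) on the 18 arrays, coloured by group, with a dashed line at level 5. 11 probes sit left of the line on every array, between 4.09 and 4.49, the Cntn6 probe straddles it, and 1 probe each of Cntn1 and Cntn2 lies far to the right.

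Some arrays stood apart or carried labels that disagree. One NdpKO;Ptch+/- GNP array, replicate 2, is called NdpKO in its genotype label, and was grouped by its title. Its signal of Prm1, which read 4.12 in wild-type and NdpKO GNPs, was 9.92, within the 9.79 to 10.66 of the NdpKO;Ptch+/- arrays. Its Ptch1 signal was 7.80, below the 8.65 to 8.97 of the NdpKO arrays. Ptch1 averaged 8.06 ± 0.19 in NdpKO;Ptch+/-, 7.83 ± 0.14 in Ptch+/-, 8.80 ± 0.15 in NdpKO and 8.63 ± 0.06 in wild-type GNPs (SD, n = 4 each), while the Ndp probe was at background everywhere and so does not test the Ndp labels. On the first principal component of the GNP arrays, which held 43.6% of the variance of 1500 probes, NdpKO replicate 4 lay with the wild-type arrays and NdpKO;Ptch+/- replicate 1 with the Ptch+/- arrays, and results below were repeated without both. Ptch+/- replicate 3 was the only array with a high Xist signal, at 10.02.

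The promoters of the contactins that rose above background are shown because these 3 genes carry all that follows. The windows come from RefSeq on build GRCm38.p6, and run from 250 bases before to 50 bases after an annotated start. Capitals mark matches, on either strand, to any of 6 short motifs: CAGCTG (an E-box), and CAGATG (the E-box form preferred by Neurod proteins), and TTGGC (a partial site of nuclear factor I, a family known in mice to control Cntn2 in granule neurons), and GACCACCCA (the Gli site), and GGGCGG (a GC box), and TATAAA (the core of the TATA box). Cntn2 lies on chromosome 1, Cntn1 on chromosome 15 and Cntn6 on chromosome 6.
Cntn2 promoter, chr1:132542891-132543190, minus strand: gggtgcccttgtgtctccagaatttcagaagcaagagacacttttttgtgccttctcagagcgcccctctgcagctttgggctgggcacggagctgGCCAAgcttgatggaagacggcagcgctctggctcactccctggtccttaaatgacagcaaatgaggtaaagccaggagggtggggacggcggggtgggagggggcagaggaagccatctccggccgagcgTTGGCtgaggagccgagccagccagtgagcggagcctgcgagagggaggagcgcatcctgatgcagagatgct
Cntn1 promoter, first of 3 windows, chr15:92050915-92051214, plus strand: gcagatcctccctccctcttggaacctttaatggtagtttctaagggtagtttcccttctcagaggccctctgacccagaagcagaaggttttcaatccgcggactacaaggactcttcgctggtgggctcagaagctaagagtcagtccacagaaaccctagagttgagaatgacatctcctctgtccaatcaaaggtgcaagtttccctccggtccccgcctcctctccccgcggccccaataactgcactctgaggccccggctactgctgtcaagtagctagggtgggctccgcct
Cntn6 promoter, chr6:104492794-104493093, plus strand: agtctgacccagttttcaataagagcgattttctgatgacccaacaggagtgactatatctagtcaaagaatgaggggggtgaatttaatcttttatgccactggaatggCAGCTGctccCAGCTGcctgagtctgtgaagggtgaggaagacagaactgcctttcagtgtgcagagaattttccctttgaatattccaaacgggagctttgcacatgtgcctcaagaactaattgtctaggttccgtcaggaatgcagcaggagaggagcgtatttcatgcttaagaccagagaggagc

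The Cntn2 window holds 2 partial sites of nuclear factor I, starting at -154 and -23 from the start site, and none of the other motifs. This motif is common, with a match in 46.7% of the 32851 promoter windows of the table. The Cntn6 window holds 2 copies of CAGCTG, starting at -140 and -130, a motif with a match in 16.3% of all windows. The first Cntn1 window holds none of the 6 motifs. Over all 10 windows of the 6 genes, CAGCTG matched in 3, the partial nuclear factor I site in 2, the GC box in 2 (35.7% of all windows), the TATA box in 1 (13.6%), and neither CAGATG (17.2%) nor the Gli site (0.253%) in any. The 2 GC box matches are 1 site read in 2 overlapping windows of Cntn5, and the 2 windows of Cntn4 also overlap. The matches describe these letters only, and binding at them was not measured.

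Cntn2 was the contactin with the clearest differences between GNP genotypes. Its log2 signal was 10.61, 10.41, 10.65 and 10.55 in NdpKO;Ptch+/- GNPs, and 10.68, 10.66, 10.74 and 10.69 in Ptch+/- GNPs. It was 10.75, 10.54, 10.78 and 10.54 in NdpKO GNPs, against 10.28, 10.24, 10.38 and 10.39 in wild-type GNPs. Every mutant array was above every wild-type array, and the Ptch+/- arrays were the tightest group, with an SD of 0.03 against 0.07 to 0.13 elsewhere. In order of group mean, Ptch+/- stood at 10.69, NdpKO at 10.65, NdpKO;Ptch+/- at 10.56 and wild type at 10.32. Neighbouring groups in that order overlapped, except NdpKO;Ptch+/- and wild type.

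**Figure D2:**
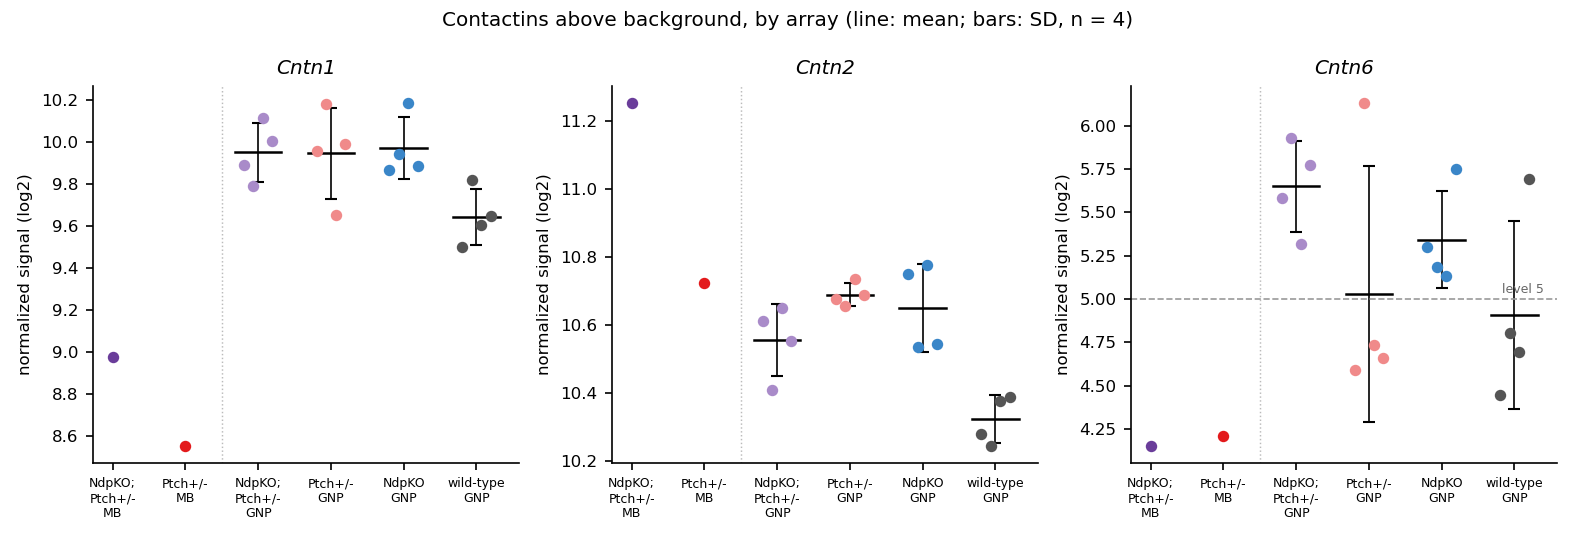
Normalized signal (y axis, log2, each panel on its own scale) of Cntn1, Cntn2 and Cntn6 on every array, for the 2 MBs and the 4 GNP genotypes, with the mean and SD of each GNP group (n = 4). Wild-type GNPs are lowest for Cntn2, at 10.24 to 10.39, both MBs lie below all GNPs for Cntn1 and Cntn6, and 1 Ptch+/- array stands at 6.13 for Cntn6.

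Cntn2 rose in Ptch+/- GNPs, by 0.37 ± 0.06 (SE) on the log2 scale over wild-type GNPs, which is 1.29-fold (limma, Benjamini-Hochberg adjusted p = 0.023, 95% confidence interval 0.23 to 0.50). It was the only contactin called in that comparison, 1 of 6 genes, where 1.09% of all probes were called. The groups also did not overlap for 1 of the 6 contactins, against 9.28% of all probes, and the exact two-sided permutation test over the 8 arrays gave p = 0.0286, the smallest that 4 against 4 arrays can give. The call was close to its limit: leaving out wild-type replicate 1 or 2, or any of the Ptch+/- replicates, put the adjusted p between 0.0504 and 0.0648, with the difference between 0.34 and 0.38. Cntn1 and Cntn6 differed from wild type by 0.30 ± 0.11 (adjusted p = 0.24) and 0.12 ± 0.34 (adjusted p = 0.94) in the same comparison, and the median over the 6 genes was 0.06, against 0.00028 over all probes.

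In NdpKO GNPs, Cntn2 lay 0.33 ± 0.06 above wild type with an adjusted p of 0.054 (limma), so it was not called (95% confidence interval 0.19 to 0.47). No contactin was called there, against 0.307% of all probes. The NdpKO and wild-type arrays did not overlap for Cntn1 and Cntn2, 2 of 6 genes, against 5.47% of all probes. When each of the 8 arrays was left out in turn, the adjusted p ran from 0.033 to 0.19 and the difference from 0.29 to 0.37. The fit without NdpKO replicate 4 was the only one of these that called Cntn2, with a difference of 0.36, and leaving out both arrays that stood apart also gave 0.36 with an adjusted p of 0.0205. NdpKO replicate 4 was singled out on the first component, which Cntn2 itself follows (r = 0.81), so leaving it out is not independent of Cntn2.

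NdpKO;Ptch+/- GNPs had Cntn2 signals 0.23 ± 0.06 above wild type (adjusted p = 0.36), with no contactin called, against 0.0508% of all probes. Their arrays did not overlap with wild type for 1 of 6 contactins, Cntn2, against 3.63% of all probes. Set against Ptch+/- GNPs, the same arrays were lower in Cntn2 by -0.13 ± 0.06 (adjusted p = 0.59, 95% confidence interval -0.27 to 0.0040). All 4 lay below all Ptch+/- arrays, and this was the only one of 6 contactins without overlap, against 4.95% of all probes. No contactin was called in that comparison, where 0.0155% of all probes were. Set against NdpKO GNPs, the difference was -0.10 ± 0.06 (adjusted p = 0.89), no contactin was called against 0.00442% of all probes, and none of the 6 separated the groups, against 2.56% of all probes.

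The 2 mutations together gave a Cntn2 signal below the sum of their single differences. The interaction, the NdpKO;Ptch+/- minus Ptch+/- difference less the NdpKO minus wild-type difference, was -0.46 ± 0.09 for Cntn2 (limma, adjusted p = 0.048, 95% confidence interval -0.66 to -0.27). It was the only contactin of 6 called for the interaction, where 0.495% of all probes were called. Leaving out any GNP array other than NdpKO;Ptch+/- replicate 1 or NdpKO replicate 4 ended it, with adjusted p-values from 0.0179 to 0.108 over all such fits. Counting the array with disagreeing labels as NdpKO gave -0.37 with an adjusted p of 0.22, although its Prm1 and Ptch1 signals were unlike those of NdpKO arrays. Leaving out both arrays that stood apart gave -0.52 with an adjusted p of 0.0096. Both arrays were singled out on the first component, which Cntn2 itself follows, so that fit is not independent of Cntn2. The interaction was -0.32 ± 0.16 for Cntn1 (adjusted p = 0.41) and 0.19 ± 0.48 for Cntn6 (adjusted p = 0.92).

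**Figure D3:**
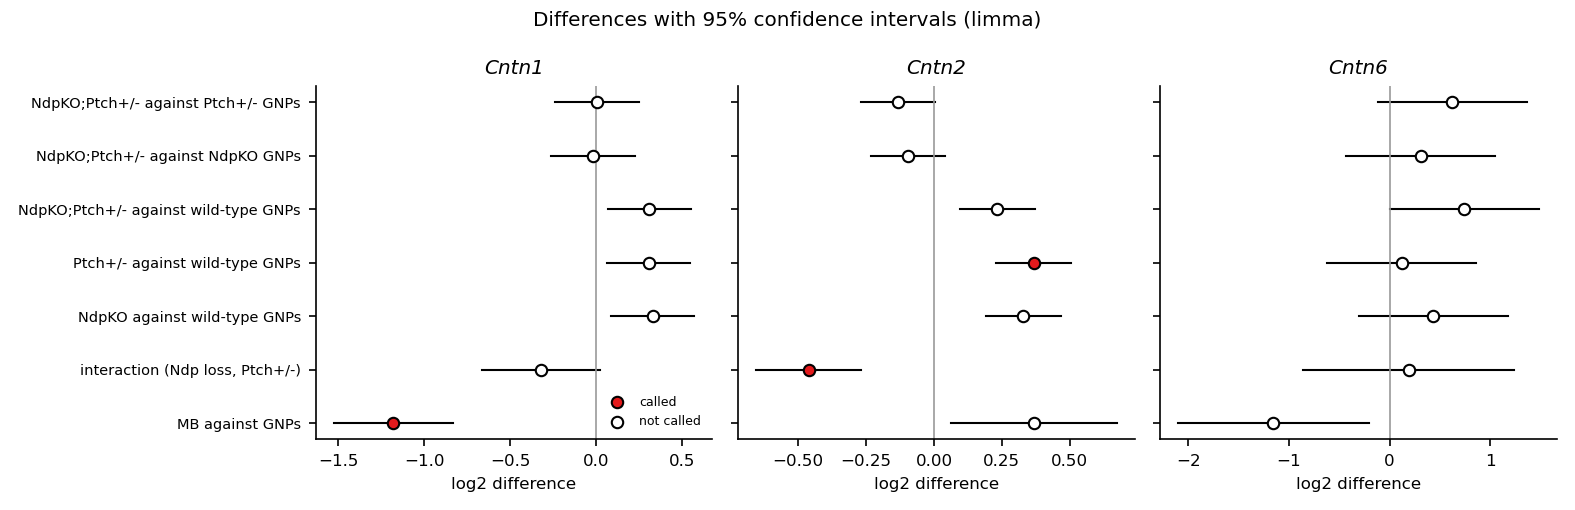
Log2 differences (x axis, each panel on its own scale) of Cntn1, Cntn2 and Cntn6 in 7 comparisons (rows), with 95% confidence intervals from limma. Filled points were called at an adjusted p below 0.05: Cntn2 in Ptch+/- against wild-type GNPs (0.37) and for the interaction (-0.46), and Cntn1 in MBs against GNPs (-1.18).

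The other 3 probes of Cntn2 read between 4.10 and 4.49, within background, so no fold is given for them. The Cntn2 results thus rest on 1 probe.

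Summed signals of markers of granule neuron progenitors and of their differentiation moved with Cntn2, while those of other cell types correlated negatively with it. In these bulk RNAs, fewer cells of a type and less RNA per cell cannot be told apart. A summed signal is the log2 of the summed unlogged signals of a list, so the brightest genes weigh most. It does not show that each listed gene followed Cntn2. Rbfox3 and Reln were the brightest of 14 genes of differentiating granule neurons, with means of 12.56 and 12.52 over the 18 arrays. The summed signal of these 14 genes ran from 14.02 to 14.23 in NdpKO;Ptch+/-, 14.33 to 14.40 in Ptch+/-, 14.23 to 14.53 in NdpKO and 14.04 to 14.21 in wild-type GNPs. Across the 16 GNP arrays it followed Cntn2 with r = 0.82, and with r = 0.83 after the group means were removed. The summed signal of 9 astrocyte and Bergmann glia genes ran the other way (r = -0.79, and -0.34 within groups), with 13.60 to 13.97 in NdpKO;Ptch+/-, 13.05 to 13.44 in Ptch+/-, 12.97 to 13.78 in NdpKO and 13.90 to 14.24 in wild-type GNPs. The summed signal of 11 progenitor genes also followed Cntn2 (r = 0.79, and 0.45 within groups), with 14.16 to 14.50 in NdpKO;Ptch+/-, 14.42 to 14.54 in Ptch+/-, 14.21 to 14.44 in NdpKO and 14.15 to 14.20 in wild-type GNPs. Oligodendrocyte genes ran against Cntn2 with r = -0.67 (-0.76 within groups), endothelial genes with r = -0.69 (-0.53 within groups) and microglial genes with r = -0.69 (-0.18 within groups). The relation was weaker for Purkinje cell genes (r = -0.43, -0.28 within groups) and interneuron genes (r = -0.37, -0.17 within groups). In Ptch+/- against wild-type GNPs, 1.09% of all probes were called. Of the 11 progenitor genes, 2 rose, the transcription factor Zic2 by 0.76 and the cyclin Ccnd2 by 0.52. All 7 at or above level 5 had positive differences. In the same comparison, 2 of the 14 differentiation genes rose (the glutamate receptor subunit Grin2b by 1.18 and the potassium channel Kcnd2 by 0.71) and none fell, while 1 of the 9 glial genes, Sox9, fell by 0.55, and 1 of 8 oligodendrocyte lineage genes, the growth factor receptor Pdgfra, fell by 0.84. At or above level 5, none of 8 glial, 6 endothelial and 4 microglial genes had a positive difference, with medians of -0.94, -0.72 and -0.94. Positive differences were found for 1 of 6 oligodendrocyte, 2 of 6 interneuron and 8 of 10 differentiation genes at that level. The differentiation genes Neurod1 and Sema6a were lower, at 8.03 and 7.50 in Ptch+/- against 8.32 and 7.56 in wild-type GNPs. No endothelial, microglial or interneuron gene was called there. All genes were read on the same arrays, so their signs are not independent. Cntn2 also followed the first principal component (r = 0.81, 0.54 within groups). The part of these markers in the Cntn2 result was not tested.

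Cntn1 separated wild-type from mutant GNPs less clearly. Its log2 signal was 9.89, 9.79, 10.12 and 10.00 in NdpKO;Ptch+/- GNPs, and 9.96, 10.18, 9.65 and 9.99 in Ptch+/- GNPs. It was 9.86, 9.94, 10.18 and 9.88 in NdpKO GNPs, against 9.50, 9.82, 9.60 and 9.65 in wild-type GNPs. NdpKO arrays lay above all wild-type arrays, while NdpKO;Ptch+/- replicate 2 and Ptch+/- replicate 3 lay below the highest wild-type array. The 3 mutant means were 9.95, 9.95 and 9.97 in NdpKO;Ptch+/-, Ptch+/- and NdpKO GNPs, against 9.64 in wild-type GNPs. The differences from wild type were 0.31 ± 0.11 (adjusted p = 0.57), 0.30 ± 0.11 (adjusted p = 0.24) and 0.33 ± 0.11 (adjusted p = 0.28) in the same order, and none was called. Between mutants, NdpKO;Ptch+/- differed from Ptch+/- by 0.0045 (95% confidence interval -0.24 to 0.25) and from NdpKO by -0.02 (95% confidence interval -0.26 to 0.22).

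Cntn6 was near the limit of detection and varied most within groups. Its log2 signal was 5.58, 5.93, 5.32 and 5.77 in NdpKO;Ptch+/- GNPs, and 4.59, 6.13, 4.73 and 4.66 in Ptch+/- GNPs. It was 5.30, 5.18, 5.13 and 5.75 in NdpKO GNPs, against 4.44, 4.80, 4.69 and 5.69 in wild-type GNPs. All NdpKO;Ptch+/- and NdpKO arrays were above level 5, whereas Ptch+/- and wild type each had 1 array above it. NdpKO;Ptch+/- exceeded wild type by 0.74 ± 0.34 (adjusted p = 0.72) and Ptch+/- by 0.62 ± 0.34 (adjusted p = 0.66), neither of which was called, and the 95% confidence intervals ran from 0.0020 to 1.48 and from -0.12 to 1.36. The wild-type mean of 4.91 lies below level 5, so against that level the means give a signal at least 1.57-fold higher in NdpKO;Ptch+/- GNPs. This bounds the ratio of the means only, and not the uncertainty of a difference that was not called. Without Ptch+/- replicate 2, the difference from Ptch+/- GNPs was 0.99 and was still not called. Its signal followed the summed signals of 7 GABAergic interneuron genes (r = 0.65, 0.77 within groups) and of 6 Purkinje cell genes (r = 0.54, 0.65 within groups) over the 16 GNP arrays. Only 2 of the 6 Purkinje cell genes had a mean at or above 5, Pcp2 at 8.41 and Rora at 6.44 over the 18 arrays. These sums weigh the brightest genes most and do not show that each listed gene followed Cntn6. The interneuron list ran from 12.33 to 12.66 in NdpKO;Ptch+/-, 12.22 to 12.56 in Ptch+/-, 12.29 to 12.53 in NdpKO and 12.27 to 12.75 in wild-type GNPs. The part of these cells in the Cntn6 signal was not tested.

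In the tumours, Cntn1 fell. It read 8.98 in the NdpKO;Ptch+/- MB and 8.55 in the Ptch+/- MB, against 9.65 to 10.18 in the 8 GNP arrays of the same genotypes. Both tumours lay below every GNP array of the series. The difference, with genotype in the model, was -1.18 ± 0.15, or 2.27-fold lower (limma, adjusted p = 0.00128, 95% confidence interval -1.53 to -0.83), and was called under all 18 alternative settings, at -1.39 to -0.97. Cntn1 was the only contactin called, 1 of 6 genes, where 14.7% of all probes were called. With 1 tumour of each genotype, the spread in this fit comes almost wholly from the GNP arrays.

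Cntn2 was not lower in either tumour. It read 11.25 in the NdpKO;Ptch+/- MB and 10.72 in the Ptch+/- MB, against 10.41 to 10.65 in NdpKO;Ptch+/- GNPs and 10.66 to 10.74 in Ptch+/- GNPs. The NdpKO;Ptch+/- tumour was above all GNP arrays, and the Ptch+/- tumour lay among the Ptch+/- arrays. The pooled difference was 0.37 ± 0.13 and was not called (adjusted p = 0.12, 95% confidence interval 0.06 to 0.67). One tumour decided it: the difference was 0.04 (adjusted p = 0.89) without the NdpKO;Ptch+/- MB and 0.70 (adjusted p = 0.0019) without the Ptch+/- MB. It was also called after cyclic loess (0.51, adjusted p = 0.029) and with all 18 arrays in the fit (0.37, adjusted p = 0.0018).

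Cntn6 was at background in both tumours, with 4.15 in the NdpKO;Ptch+/- MB and 4.21 in the Ptch+/- MB, against 5.32 to 5.93 in NdpKO;Ptch+/- GNPs and 4.59 to 6.13 in Ptch+/- GNPs. Both tumours lay below every GNP array. The measured difference was -1.16 ± 0.41 (adjusted p = 0.11) and was not called. Against level 5 it amounts to a signal at least 1.26-fold lower in MBs. It was called when only probes above background were tested (adjusted p = 0.028), with a trended and robust prior (adjusted p = 0.037), after cyclic loess (adjusted p = 0.0495), and without Ptch+/- replicate 2 (adjusted p = 0.048). The tumours and GNPs did not overlap for Cntn1 and Cntn6, 2 of 6 contactins, against 23.1% of all probes. The median difference of the 6 contactins was -0.0038, since 3 of them were at background throughout, against -0.00051 over all probes.

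Markers of several cell types differed between tumours and GNPs, in a comparison where 14.7% of all probes were called. All 8 microglial genes listed rose in MBs, and their summed signal was 12.07 in the NdpKO;Ptch+/- MB and 13.01 in the Ptch+/- MB, against 8.97 to 11.12 in GNPs of all genotypes. The interneuron genes Gad1, Slc32a1 and Lhx5 and the Purkinje cell gene Pcp2 fell to background in both tumours, at least 15.1-fold, 36.3-fold, 6.78-fold and 15.4-fold lower than in GNPs, while the transcription factor Lhx1 rose by 0.65. Pvalb, on the same list, differed by 0.87 and was not called (adjusted p = 0.35). The summed interneuron signal did not separate the tissues, with 12.34 in the NdpKO;Ptch+/- MB and 12.56 in the Ptch+/- MB, against 12.22 to 12.75 in GNPs. Of 8 oligodendrocyte lineage genes, the myelin genes Mbp, Mag and Mog fell, Mbp 20.6-fold, Mag at least 63.6-fold and Mog at least 4.18-fold, while the precursor genes Olig1, Pdgfra and Cspg4 rose. The summed signal of 7 endothelial genes was 9.41 in the NdpKO;Ptch+/- MB and 9.26 in the Ptch+/- MB, against 10.93 to 12.82 in GNPs, and 2 of these genes, Cldn5 and Emcn, fell. Among 9 astrocyte and Bergmann glia genes, 3 rose and 2 fell, and among 11 progenitor genes, 4 rose and 1 fell. Summed over 6 Purkinje cell genes, the signal was 6.90 in the NdpKO;Ptch+/- MB and 7.08 in the Ptch+/- MB, against 8.19 to 10.56 in GNPs. Of the differentiating granule neuron list, 4 of 14 genes fell, among which Neurod2 fell by 4.61 and Kcnd2 fell by 3.99, and 2 rose, Sema6a by 1.27 and Reln by 0.54. The part of these cells in the contactin differences was not tested.

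Between the tumours, the NdpKO;Ptch+/- MB was higher than the Ptch+/- MB by 0.42 for Cntn1 and 0.53 for Cntn2 on the log2 scale. With 1 tumour per genotype there is no test. Among the 10929 probes with a tumour mean at or above 5, the median absolute difference was 0.34, and the contactin differences stood at its 58.2 and 66.7 percentiles. No contactin differed by 1 or more, as 3.52% of all probes did. Cntn3 to Cntn6 were at background in both tumours and give no difference.

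The contactins' ligands and partners were read from a list of 25 genes, of which 10 had a mean at or above 5. Of the caspr proteins that pair with contactins in the same membrane, only Cntnap4, which is known at interneuron synapses, was above background. The single Cntnap1 probe stayed at or below 4.18 and the 5 Cntnap2 probes at or below 4.31 on every array, so the best known partners of Cntn1 and Cntn2 gave no level here. The related adhesion molecule L1cam, which contactins bind, was likewise at background, at or below 4.15. In GNPs, the neural adhesion molecule Ncam1 rose in NdpKO over wild type by 0.74 ± 0.12 (limma, adjusted p = 0.029), with 9.42, 9.30, 9.49 and 9.16 in NdpKO against 8.42, 8.72, 8.60 and 8.68 in wild-type GNPs. Tnc, the extracellular matrix glycoprotein tenascin-C that binds Cntn1, fell in Ptch+/- GNPs by 1.09 ± 0.19 (adjusted p = 0.023), with 6.44, 6.55, 7.25 and 6.55 in Ptch+/- against 7.65, 7.73, 7.89 and 7.89 in wild-type GNPs. Its interaction was 1.52 ± 0.27 (adjusted p = 0.040), of opposite sign to that of Cntn2. No other partner of the 25 was called between GNP genotypes.

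**Figure D4:**
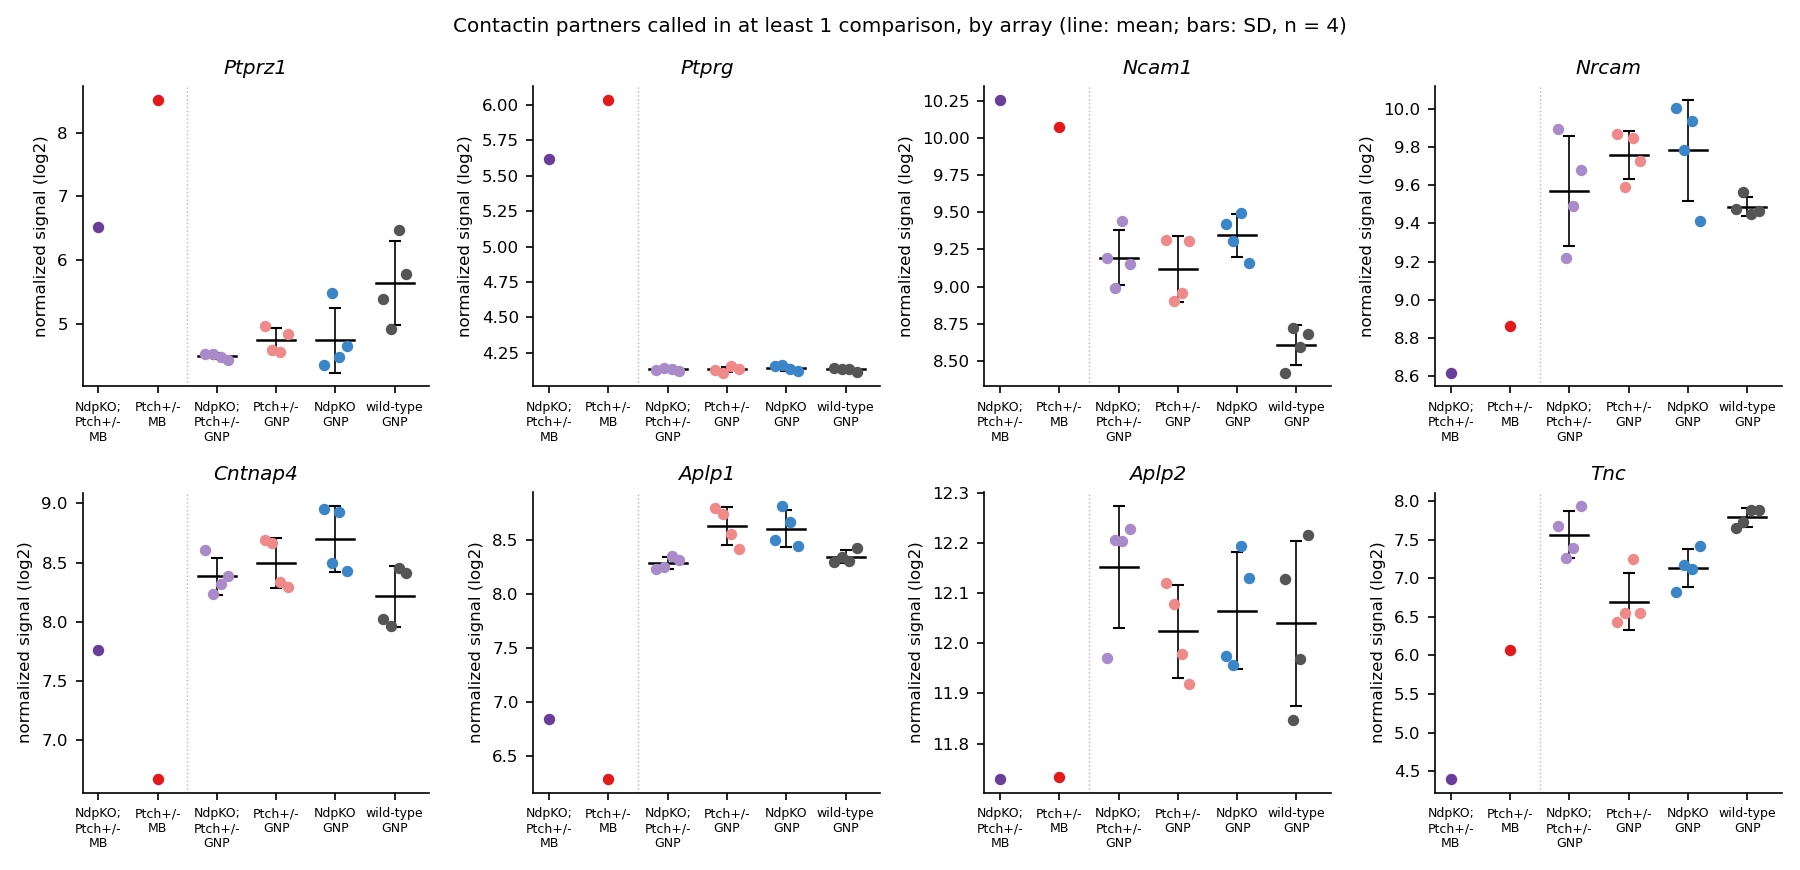
Normalized signal (y axis, log2, each panel on its own scale) of 8 contactin partners on every array, for the 2 MBs and the 4 GNP genotypes, with the mean and SD of each GNP group (n = 4). Ptprz1, Ptprg and Ncam1 are higher in both MBs than in all GNPs of their genotypes, and Nrcam, Cntnap4, Aplp1, Aplp2 and Tnc lower.

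In tumours, 3 of the 25 partners rose and 5 fell, against 14.7% of all probes called. Ptprz1, the phosphatase that binds Cntn1, read 6.53 in the NdpKO;Ptch+/- MB and 8.52 in the Ptch+/- MB, against 4.43 to 4.53 in NdpKO;Ptch+/- GNPs and 4.56 to 4.97 in Ptch+/- GNPs. The signal was thus at least 5.74-fold higher in MBs (2.90 ± 0.33 measured on the log2 scale, limma, adjusted p = 7.5e-04). Ptprg, the phosphatase that binds Cntn3 to Cntn6, read 5.62 in the NdpKO;Ptch+/- MB and 6.04 in the Ptch+/- MB, against 4.11 to 4.17 in all GNPs, and was at least 1.78-fold higher (adjusted p = 3.9e-06). Ptprz1 thus moved opposite to Cntn1 in these 2 tumours, while Ptprg was above background in tumours in which none of the contactins it binds was. Only 1 of 2 Ptprz1 probes and 1 of 3 Ptprg probes reached level 5 on any array, so each of these results rests on 1 probe.

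The adhesion molecules and processing partners divided in the same tumours. Ncam1 rose by 1.01 ± 0.14 (adjusted p = 0.0025), with 10.26 in the NdpKO;Ptch+/- MB and 10.07 in the Ptch+/- MB. Nrcam, an L1 family molecule that binds Cntn1 and Cntn2, fell by 0.93 ± 0.16 (adjusted p = 0.0055), with 8.62 in the NdpKO;Ptch+/- MB and 8.86 in the Ptch+/- MB, against 9.22 to 9.89 in the 8 GNP arrays of these genotypes. Cntnap4 fell by 1.23 ± 0.25 (adjusted p = 0.015) and Tnc by 1.90 ± 0.52 (adjusted p = 0.047), both unevenly. In the NdpKO;Ptch+/- MB, Cntnap4 read 7.76 and Tnc 4.40, below level 5, against GNP means of 8.39 and 7.56 in that genotype. In the Ptch+/- MB they read 6.67 and 6.06, against GNP means of 8.50 and 6.70. The amyloid precursor-like proteins Aplp1 and Aplp2 fell by 1.89 ± 0.19 (adjusted p = 3.6e-04) and 0.36 ± 0.08 (adjusted p = 0.020). Chl1, a further L1 family molecule, read 4.11 in the NdpKO;Ptch+/- MB and 4.14 in the Ptch+/- MB, against 4.21 to 4.55 in GNPs of these genotypes, all below level 5. Over the 25 partners the median difference was -0.02, against -0.00051 over all probes.

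Across the 16 GNP arrays the contactins above background did not follow one pattern. Cntn1 and Cntn2 correlated with r = 0.63 (rho = 0.61), but with r = 0.18 within groups and r = 0.45 without the 2 arrays farthest from the median of Cntn1. Cntn1 and Cntn6 gave r = 0.39, and Cntn2 and Cntn6 r = 0.10. All arrays share the genotype groups and the cell mixture described above, so these values are descriptions.

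Among 6913 other genes above background, those most like Cntn2 over the 16 GNP arrays were Grin2b (r = 0.94, 0.77 within groups), Usp46 (0.94), Baiap2 (0.92), Bicral (0.91) and Aak1 (0.91), and those least like it were Hspb1 (-0.91), Hus1 (-0.90) and Chkb (-0.89). Grin2b encodes an NMDA receptor subunit and Hspb1 a small heat shock protein. Cntn1 was most like Neto2 (r = 0.87, 0.78 within groups), an auxiliary subunit of kainate receptors, then Sf3b3 (0.80), Rtl8b (0.79), Rims1 (0.78) and Mapk8ip1 (0.78), and least like Tmem248 (-0.80), Unc119b (-0.79) and Atf3 (-0.78). Cntn6 was most like the synaptic adhesion gene Clstn3 (r = 0.90, 0.91 within groups), then Scamp5 (0.88), Vgf (0.86), Caln1 (0.84) and Kcnab1 (0.84), and least like Anapc15 (-0.82), Pkig (-0.82) and Dnajc30 (-0.80). No contactin was among the genes named for another contactin. The Cntn6 relation held within groups, whereas those of Cntn1 and Cntn2 were closer over all arrays than within groups.

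**Figure D5:**
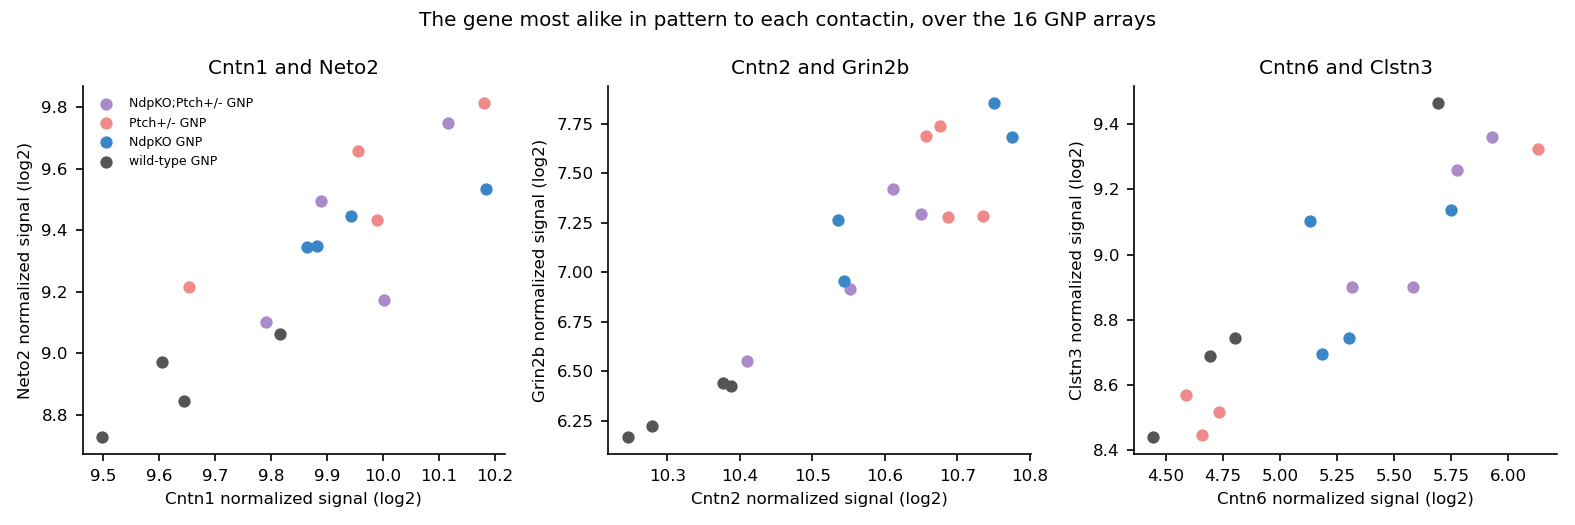
Normalized signals (log2) of Cntn1, Cntn2 and Cntn6 (x axes) and of the gene most like each, Neto2, Grin2b and Clstn3 (y axes), on the 16 GNP arrays coloured by genotype. The wild-type arrays have the lowest Neto2 signals and the lowest signals of both Cntn2 and Grin2b, and for Cntn6 the wild-type array at 5.69 and the Ptch+/- array at 6.13 lie at the high end of both.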

How the data were processed

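Total RNA of GNPs and MBs was hybridised to MouseWG-6 v2.0 arrays. The authors processed BeadStudio outputs with limma's neqc, and the deposited table holds the resulting log2 values; the limma version, and any genome build, are not given in the sources used here. Of 45281 probes, 34885 have 1 gene symbol in the platform annotation, 18 several and 10378 none. The study filtered out probes of poor annotation quality for its clustering and principal component plots, which was not done here. Starting from these values, limma 3.58.1 (R 4.3.3) fitted 1 mean per genotype to the 16 GNP arrays, and tissue with genotype to the 2 MB and 8 GNP arrays of the same genotypes, with empirical Bayes, two-sided tests and Benjamini-Hochberg adjustment over all probes; a probe was called at an adjusted p below 0.05. Array number limits the precision. A fold with 1 group below level 5 was taken against that level and is a bound. The code was tested on simulated data. Replicate numbers did not pair the arrays. All contactins were named, along with partners that were called or listed by rule, and per contactin the 5 most and 3 least correlated genes. Members, lists and level 5 were chosen with earlier results of these data known. Alternatives covered array subsets, a filter, normalization, prior, weights, probe choice and a replicate block.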

Additional observations from a re-analysis of the deposited data

Results flagged for a closer look

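In groups of 4 arrays, 3 single values among 13 genes and 52 groups lay far from the other 3 arrays, a gap that chance gives in about 1 of 20 groups. Cntn6 read 6.13 on Ptch+/- GNP replicate 2, against 4.59 to 4.73 on the other Ptch+/- arrays. Tnc read 7.25 on Ptch+/- GNP replicate 3, against 6.44 to 6.55 on the others, and this array was also the one with a high Xist signal. Aplp2 read 11.97 on NdpKO;Ptch+/- GNP replicate 1, one of the arrays that stood apart, against 12.20 to 12.23 on the others.

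By limma's test, the interaction of the Ndp and Ptch genotypes was called for Cntn2 (-0.46, adjusted p = 0.048) and for Tnc (1.52, adjusted p = 0.040). Strain and Ndp loss cannot be told apart in it. For Cntn2 it was called in 8 of 25 alternatives.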

How the results depend on the processing

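Each contactin result, and each count of probes called over all probes, was recomputed under the alternatives that could be fitted, 677 values in all. Cntn1 in MBs against GNPs kept its direction and its call under all 18. Cntn2 in Ptch+/- against wild-type GNPs was called in 12 of 18, in NdpKO against wild-type GNPs in 6 of 18 and for the interaction in 8 of 25, always with the same sign. In NdpKO against wild-type GNPs, the count of contactins called, 0 as reported, became 1 with the replicate block (Cntn2, adjusted p = 0.041), without the array of disagreeing labels, with only probes above background, with the mean of all probes of a gene and, chosen after seeing the data, without both arrays that stood apart, and ranged from 0 to 1 when 1 array was left out. The same leave-one-out range, 0 to 1, held for Ptch+/- against wild-type GNPs and for the interaction. The interaction count became 0 when NdpKO;Ptch+/- replicate 2 was moved to NdpKO or left out, and after cyclic loess. In MBs against GNPs the count became 2 with only probes above background, with all 18 arrays in the fit and with the trended robust prior, and 3 after cyclic loess, and ranged from 1 to 2 when 1 array was left out. The mean of all Cntn2 probes differed by 0.18 between the tumours, since 3 of its 4 probes are at background.

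Signs turned only for differences that were not called. With that array moved to NdpKO, NdpKO;Ptch+/- minus NdpKO GNPs was 0.069 for Cntn1 and 0.00098 for Cntn2 and the Cntn6 interaction was -0.020; without that array the Cntn1 difference was 0.034. When 1 array was left out, Cntn1 ranged from -0.074 to 0.053 in NdpKO;Ptch+/- against NdpKO GNPs and from -0.093 to 0.083 against Ptch+/- GNPs, and Cntn6 from -0.25 to 0.38 in Ptch+/- against wild-type GNPs and from -0.072 to 0.56 for the interaction.

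Replicate numbers share only a label: for 4 of the 16 GNP arrays, the closest array of another genotype carried the same number, and the median correlation over 24 same-numbered pairs was -0.04. With the replicate block, 52 probes were called in NdpKO against wild-type GNPs and 263 in Ptch+/- against wild-type GNPs, against 139 and 494 without it. Over all probes, counts moved most without both arrays that stood apart, to 1070 in NdpKO against wild-type GNPs, 1404 in Ptch+/- against wild-type GNPs and 2577 for the interaction. Both arrays were singled out on the first component of these same data, so the larger counts are not independent of that choice. Signals near background limit what Cntn3 to Cntn6 can show.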
